A study of Mus musculus with 18 samples.

Results

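A set of 10 genes that regulate the making of mitochondria was followed as C2C12 cells differentiated. C2C12 is an established line of mouse muscle precursors, whose cells leave the cell cycle and join into multinucleate myotubes in low serum. The genes were chosen by name from the count table: the PGC-1 coactivators Ppargc1a, Ppargc1b and Pprc1, the estrogen-related receptors Esrra, Esrrb and Esrrg, the fatty acid receptor Ppard, the nuclear factors Nrf1 and Gabpa, and the mitochondrial DNA factor Tfam. The table held 55450 genes, of which 17912 passed the filter on low counts, and all 10 regulators were among those. The control was a sorted C2C12 population that had received the empty editing vector pX458. The 2 other lines each grew from 1 edited cell carrying a deletion in the promoter region of Meg3, the long noncoding RNA gene of the imprinted Dlk1-Dio3 cluster, and the labels name them the Dlk1-Dio3 overexpressor and the Dlk1-Dio3 knockout. Each line was sampled as myoblasts in 10% fetal bovine serum and as myotubes on day 3 after confluent cells were moved to 2% horse serum, with 3 libraries (A, B and C) in each of the 6 groups. Because each genotype was 1 clone and the control was a population, genotype and clone cannot be told apart. The labels do not say whether A, B and C were separate cultures, so p-values measure only the spread between these libraries.

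PGC-1 coactivators bind no DNA of their own. They are recruited by transcription factors: the estrogen-related receptors and PPARD, which act on genes of fatty acid oxidation and the citric acid cycle, and NRF1 and the ETS factor GABPA, which act on nuclear genes of the respiratory chain and of mitochondrial import. Among the targets of NRF1 and GABPA is Tfam, whose protein packages mitochondrial DNA and starts its transcription, so the same chain of factors serves both genomes. In skeletal muscle Ppargc1a is known as the member that answers to exercise, through calcium and AMPK signals, and the nuclear factor called NRF1 here (nuclear respiratory factor) is not the NFE2-like protein of similar name.

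Totals ran from 41544358 to 79140702 counts per library. Meg3, the edited gene, had 0 counts in all control and all knockout libraries, and 5222 to 7763 counts in the overexpressor libraries of both stages, so the name of the knockout line, and every direction given for it, rests on its label. All 6 markers of the muscle lineage and all 9 myotube markers were detected above 3 counts in every group, while the adipocyte genes Adipoq and Plin1 and the osteoblast gene Ibsp were not. Of the 5 adipocyte markers 1 to 2 were detected in a group, with sums highest in control myotubes (37.2 to 45.8 CPM), and of the 5 osteoblast markers 2 to 3, with sums highest in control myoblasts (95.6 to 103 CPM). The summed level of the myotube markers was 259 to 393 CPM in control myoblasts, 492 to 783 in overexpressor myoblasts and 9520 to 12100 in knockout myoblasts. By day 3 it had reached 14500 to 15000 CPM in control cells, 22600 to 24100 in those of the overexpressor and 30800 to 36300 in those of the knockout. The libraries labelled knockout myoblast thus held myotube transcripts before the change of medium, and in bulk RNA a larger share of differentiated cells cannot be told apart from more RNA per cell. CPM here are counts per 1000000 counts of a library, scaled by edgeR's TMM factors.

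The promoters of the regulators that differed most between the lines are shown first, as the stretches from which these transcripts start. The RefSeq table of the mouse build GRCm38.p6 held 14 promoters for 9 of the 10 regulators, and none for Ppargc1b. The window of each promoter was the 250 bases before the RefSeq start, from which distances are counted. Bases that GENCODE places in an exon are not printed, so the Ppargc1a stretch ends 1 base and the Esrra stretch 5 bases short of that start. The promoter of Ppargc1a lies at chr5:51567727-51567975 (minus strand), that of Esrra at chr19:6921814-6922058 (minus strand), and those of the 2 starts of Esrrb at chr12:86360867-86361116 and chr12:86421394-86421643 (plus strand). Capitals mark matches to short motifs, whose letters were chosen after the promoters had been read.

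Ppargc1a: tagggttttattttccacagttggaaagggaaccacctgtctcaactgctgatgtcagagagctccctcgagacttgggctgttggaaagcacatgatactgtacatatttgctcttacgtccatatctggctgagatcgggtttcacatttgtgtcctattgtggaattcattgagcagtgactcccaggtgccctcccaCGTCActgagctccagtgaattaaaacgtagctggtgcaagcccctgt
Esrra: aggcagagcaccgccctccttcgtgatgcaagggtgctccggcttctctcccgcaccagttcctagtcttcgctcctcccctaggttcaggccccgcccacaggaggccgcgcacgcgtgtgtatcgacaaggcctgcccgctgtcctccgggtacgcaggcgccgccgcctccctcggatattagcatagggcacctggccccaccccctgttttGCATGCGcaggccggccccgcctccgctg
Esrrb start 1: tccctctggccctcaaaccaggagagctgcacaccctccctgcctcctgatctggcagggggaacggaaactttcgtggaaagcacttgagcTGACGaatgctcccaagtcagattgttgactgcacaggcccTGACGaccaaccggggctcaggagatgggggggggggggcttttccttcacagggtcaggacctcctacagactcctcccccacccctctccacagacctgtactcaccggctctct
Esrrb start 2: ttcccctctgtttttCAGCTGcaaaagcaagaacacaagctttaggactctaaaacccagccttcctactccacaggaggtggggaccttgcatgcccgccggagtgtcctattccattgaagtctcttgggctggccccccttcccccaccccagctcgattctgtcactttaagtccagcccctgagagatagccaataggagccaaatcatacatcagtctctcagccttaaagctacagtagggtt

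Ppargc1a carried the core of a cAMP response element (TGACG, here on the opposite strand), 49 bases before the RefSeq start. The same core, which 17.8% of 32851 promoters held in the 250 bases before their start, stood 158 and 117 bases before the first start of Esrrb. The second start of Esrrb had an E-box of the letters CAGCTG, the kind of site that MyoD and myogenin bind, 235 bases upstream, as did 13% of promoters. Esrra had an NRF1 core (GCATGCG) 34 bases before the RefSeq start, found in 3.02% of promoters. Searched in the same way on both strands, Tfam and Gabpa held the ETS core CCGGAAG (6.91% of promoters), Pprc1 the nuclear receptor core AGGTCA (14%), and Ppard 2 E-boxes. Gabpa and the second start of Esrrg also held the NRF1 core, which in Gabpa lay on both strands with shared bases, and the first start of Esrrg and the second of Nrf1 held a MEF2 motif (2.92%). A CAGCTG or MEF2 match reads on both strands at 1 place and is counted once, and no 2 different motifs shared bases. A match describes the letters of the window and shows no binding.

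The receptor and coactivator families were each led by 1 gene. To compare genes, CPM were divided by the joined length of all annotated exons (RPKM), which understates genes with many alternative exons. Pprc1, the serum-responsive member also called PRC, made up 80.3% to 87.5% of the summed PGC-1 RPKM in the 6 groups. Ppargc1a was the least of the 3: 0.264% ± 0.13 of the family in control myoblasts and 0.283% ± 0.163 in overexpressor myoblasts, against 4.54% ± 0.346 in knockout myoblasts (SD, n = 3). On day 3 its share was 1.25% ± 0.247 for control libraries, 0.648% ± 0.353 for overexpressor libraries and 5.16% ± 1.29 for knockout libraries. Esrra made up 94.3% to 99.8% of the receptor family. Esrrb held 0.147% ± 0.0693 of it in control myoblasts and 5.68% ± 0.295 in knockout myoblasts. Large folds of Ppargc1a and Esrrb were therefore folds of rare transcripts, near 1 RPKM even in the group where they were highest (1.18 ± 0.283 for Ppargc1a and 1.0 for Esrrb, both in knockout myotubes). The summed PGC-1 level was 17.6 ± 0.784 RPKM in control and 23.7 ± 0.452 in knockout myoblasts, and 16.3 ± 0.0915 and 23.0 ± 0.466 in the myotubes of the same lines. Most of that difference was Pprc1, which stood at 15.4 RPKM in control and 19.0 in knockout myoblasts.

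**Figure D1:**
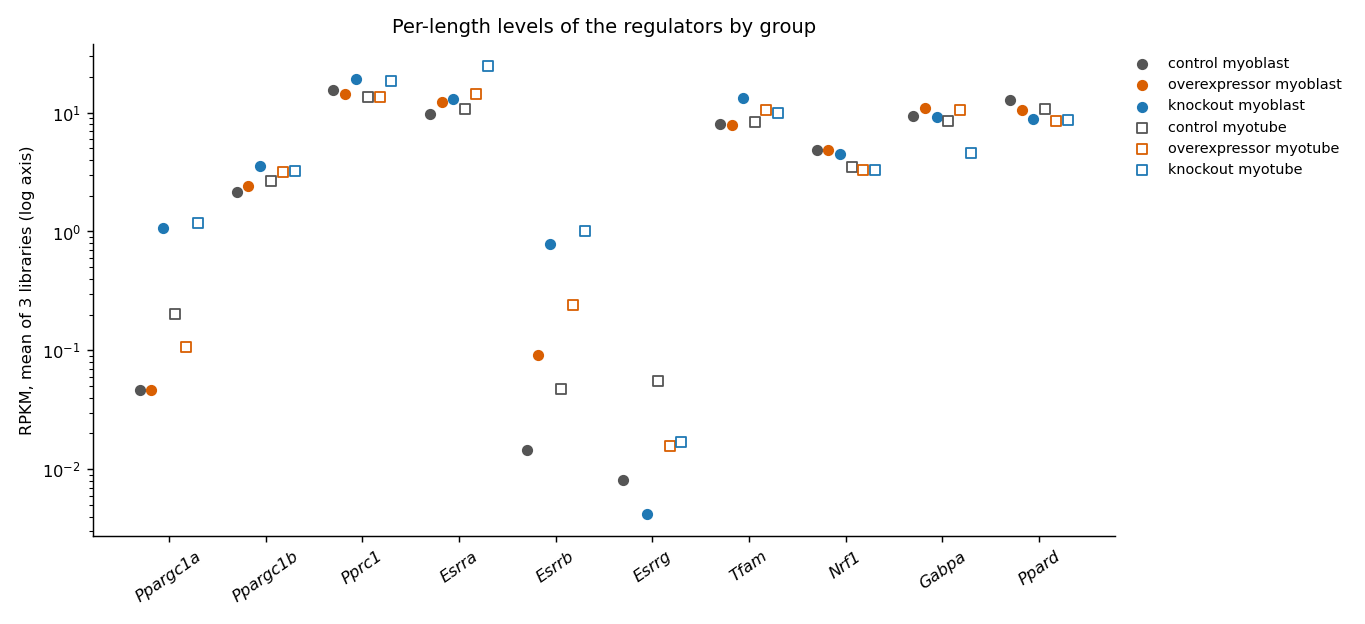
Mean RPKM (CPM per kilobase of exon, log axis) of each regulator in the 6 groups, each point the mean of 3 libraries; filled circles are myoblasts and open squares are myotubes. Ppargc1a, Esrrb and Esrrg lie at or below 1.18 in every group, while Pprc1, Esrra, Tfam, Gabpa and Ppard lie between 4.61 and 24.5; Esrrg in overexpressor myoblasts was at 0 and cannot be drawn on a log axis.

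Ppargc1a, which encodes PGC-1 alpha (chromosome 5, 51454250 to 51567726, minus strand), separated the knockout line from the other two. Its CPM in libraries A, B and C were 0.449, 0.173 and 0.29 in control myoblasts and 0.279, 0.474 and 0.162 in overexpressor myoblasts. Knockout myoblasts stood at 7.12, 7.47 and 6.66. Every knockout library was above every library of the other lines, which overlapped each other and rested on 7 to 24 counts. The difference of knockout from control myoblasts was 4.52 on the log2 scale (SE 0.381), a 23.0-fold higher level (edgeR, adjusted p = 2.63e-08). Between overexpressor and control myoblasts it was 0.0078, with a 95% confidence interval of -1.08 to 1.1. Changes of up to about 1 log2 unit in either direction were therefore not excluded. On day 3 control libraries held 1.59, 1.08 and 1.35 CPM, overexpressor libraries 0.802, 0.313 and 1.0, and knockout libraries 9.58, 7.95 and 5.85. Knockout libraries were again the highest and those of the overexpressor the lowest, with no overlap between any of the 3 groups. The knockout exceeded control myotubes 5.79-fold (log2 2.53, SE 0.315, edgeR adjusted p = 1.96e-06). The overexpressor was lower than control by 0.95 log2 units (SE 0.348, edgeR adjusted p = 0.0282). That last call was lost with library totals in place of TMM (adjusted p = 0.0645), without the filter (0.0833), with only the libraries of these groups in the fit (0.104), and without control library A (0.106) or C (0.062) or overexpressor library B (log2 -0.57, 0.113).

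Differentiation raised Ppargc1a in the control line 4.38-fold (log2 2.13, SE 0.413, edgeR adjusted p = 0.000244). In the overexpressor the rise was 2.26-fold (log2 1.18, SE 0.436, edgeR adjusted p = 0.0266), with overlapping libraries, and the call was lost under 2 other settings and without any 1 of 4 of its 6 libraries (log2 0.87 to 1.21, adjusted p 0.0661 to 0.112 where lost). In the knockout the value was 0.14, with an interval of -0.45 to 0.73. The knockout response was smaller than that of control by 1.99 log2 units (SE 0.503, edgeR adjusted p = 0.00362), from a level in knockout myoblasts that already exceeded that of control myotubes. In order of level, control and overexpressor myoblasts overlapped, overexpressor myotubes overlapped overexpressor myoblasts, control myotubes and then the knockout stood apart, and the 2 knockout stages overlapped.

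**Figure D2:**
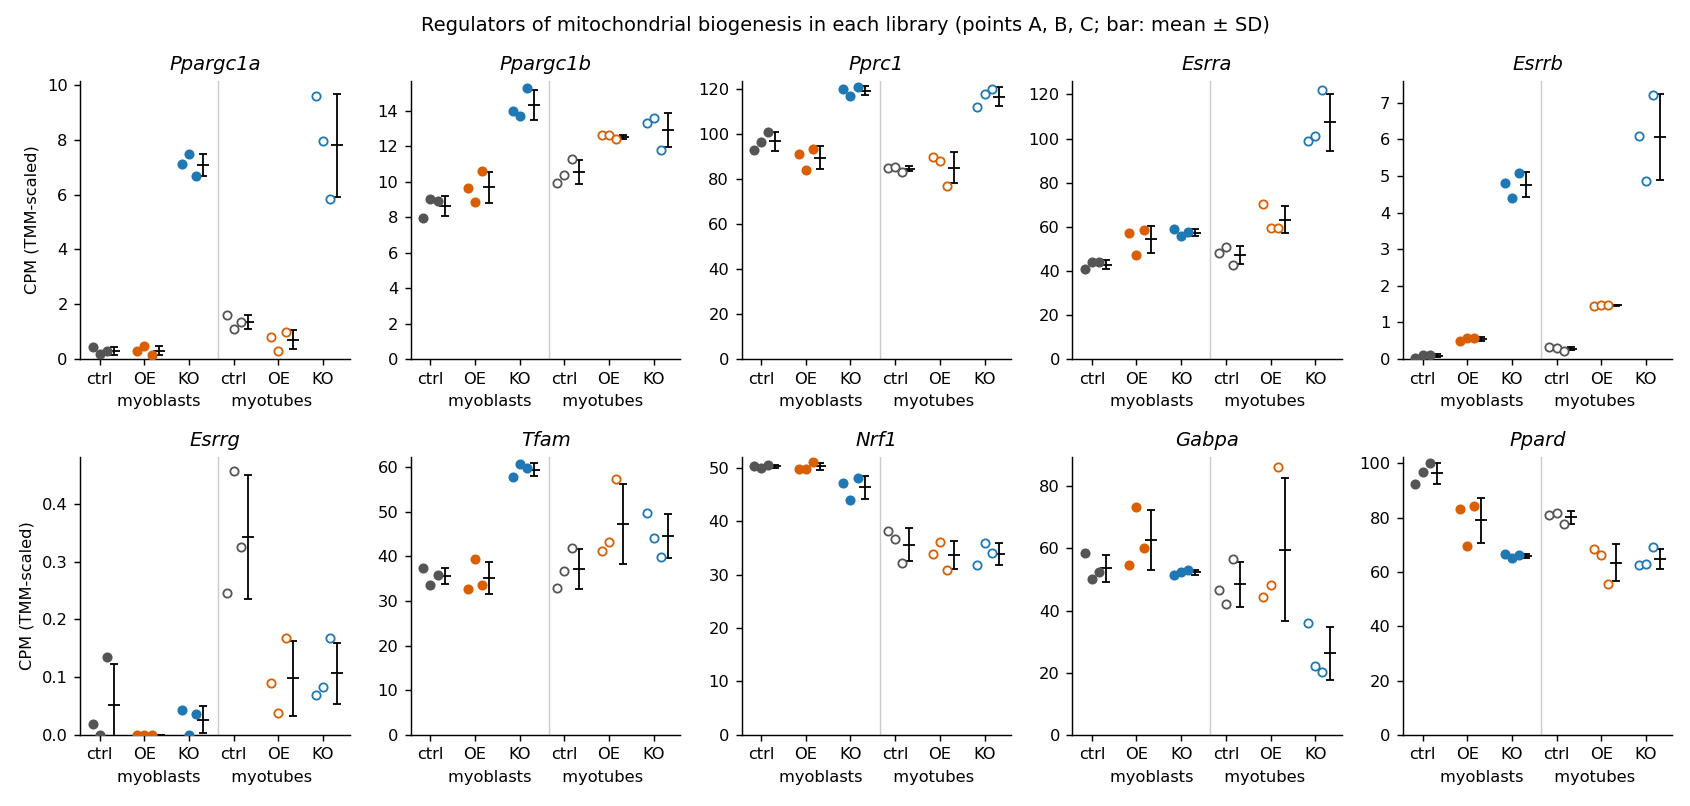
CPM (TMM-scaled) of each of the 10 regulators in the 18 libraries (points A, B and C; bars show mean ± SD of 3), for control (ctrl), overexpressor (OE) and knockout (KO) lines; filled points are myoblasts, open points myotubes, and each panel starts at 0. Ppargc1a and Esrrb are highest in both knockout groups, Esrra in knockout myotubes, Tfam and Ppargc1b in knockout myoblasts, and Gabpa in overexpressor myotubes spans 44.5 to 86.1.

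Ppargc1b and Pprc1, the other coactivators, moved in the same direction as Ppargc1a in knockout myoblasts but far less. Ppargc1b, which encodes PGC-1 beta (chromosome 18, minus strand), measured 7.96, 9.0 and 8.93 CPM in control myoblasts and 9.62, 8.84 and 10.6 in overexpressor myoblasts, which overlapped, against 14.0, 13.7 and 15.3 in knockout myoblasts, which did not. The knockout was 1.66-fold above control (log2 0.73, SE 0.093, edgeR adjusted p = 2.48e-06). In myotubes both clones were slightly above the control range of 9.93 to 11.3 CPM, the overexpressor at 12.4 to 12.6 and the knockout at 11.8 to 13.6. Their differences from control were 0.25 (edgeR adjusted p = 0.0278) and 0.29 (0.0108) on the log2 scale, and both calls were lost without the filter (0.0762 and 0.0522) or without control library A (0.109 and 0.0516). Other single libraries also ended them: control B (0.0714) and overexpressor A (0.0561) or B (0.06) for the first, and knockout B (0.0501) for the second. Differentiation raised Ppargc1b by 0.29 log2 units in control (edgeR adjusted p = 0.011) and 0.37 in the overexpressor (0.00182). The control rise was not called with library totals (0.05, adjusted p = 0.669), with only the control groups in the fit (0.0652), without control myoblast library A (0.0624) or without control myotube library C (0.0556). The knockout value was -0.15 (interval -0.35 to 0.038), and its response was below that of control by 0.45 log2 units (SE 0.131, edgeR adjusted p = 0.00892, or 0.0821 with DESeq2 size factors).

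Pprc1 (chromosome 19, 46044886 to 46072915, plus strand) was the most even of the set, its group means spanning 1.41-fold. Control myoblasts held 92.8, 96.5 and 101 CPM, overexpressor myoblasts 91.1, 84.0 and 93.6, and knockout myoblasts 120, 117 and 121. Knockout libraries stood above the rest in both stages: control myotubes held 83.4 to 85.6, overexpressor myotubes 77.1 to 89.7 and knockout myotubes 112 to 120. The knockout was higher by 0.30 log2 units in myoblasts (SE 0.0635, edgeR adjusted p = 0.000546) and by 0.46 in myotubes (SE 0.0636, edgeR adjusted p = 4.29e-06). Pprc1 fell by 0.20 log2 units with differentiation in control (edgeR adjusted p = 0.0124), a call that ended without control myoblast library C (0.0613). Its exons share 177 bases with those of Ldb1 on the opposite strand, and whether counting used strand is not given in the sources used here.

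Esrra encodes the receptor ERR alpha, a main partner of the PGC-1 coactivators in muscle (chromosome 19, 6910977 to 6921813, minus strand). Control myoblasts held 40.7, 43.9 and 44.0 CPM. Overexpressor myoblasts held 57.2, 47.1 and 58.5, and knockout myoblasts 58.8, 55.6 and 57.6. Both clones were above every control library and overlapped each other. The rises were 1.27-fold in the overexpressor (log2 0.34, SE 0.0988, edgeR adjusted p = 0.01) and 1.34-fold in the knockout (log2 0.42, SE 0.0987, edgeR adjusted p = 0.00155). The first was not called without overexpressor library C (adjusted p = 0.0536). In myotubes control held 48.0, 51.0 and 42.7 CPM, the overexpressor 70.5, 59.6 and 59.6, and the knockout 98.9, 101.0 and 122.0. The 3 lines did not overlap, with the knockout highest. Against control the overexpressor was 1.34-fold higher (log2 0.42, SE 0.0983, edgeR adjusted p = 0.00126) and the knockout 2.27-fold higher (log2 1.19, SE 0.0993, edgeR adjusted p = 7.56e-09).

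With differentiation Esrra rose in the knockout. The rise was 1.87-fold (log2 0.91, SE 0.0986, edgeR adjusted p = 3.16e-07), while the control value was 0.14 (interval -0.069 to 0.35), and the difference of the responses was 0.77 (SE 0.139, edgeR adjusted p = 0.000194). In the overexpressor the value was 0.22 (edgeR adjusted p = 0.0592), which passed with DESeq2 size factors (0.0182) and without the filter (0.0191). The receptor shares 164 exon bases with Mir6990 on its own strand and Trmt112 on the other.

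Esrrb encodes ERR beta, known best from pluripotent cells and the inner ear (chromosome 12, 86361117 to 86521628, plus strand). It was rare in control cells and gave the largest folds of the 10 regulators. The CPM were 0.0375, 0.115 and 0.111 in control myoblasts, from 2 to 6 counts each. Overexpressor myoblasts stood at 0.499, 0.582 and 0.578 CPM, and knockout myoblasts at 4.82, 4.39 and 5.07. The 3 lines did not overlap. Against control the overexpressor was 6.23-fold higher (log2 2.64, SE 0.319, edgeR adjusted p = 2.11e-06) and the knockout 53.5-fold (log2 5.74, SE 0.254, edgeR adjusted p = 2.05e-12). The overexpressor stood 3.10 log2 units below the knockout (edgeR adjusted p = 1.86e-10).

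The same order held in myotubes. Control libraries had 0.322, 0.298 and 0.234 CPM, overexpressor libraries 1.46, 1.48 and 1.47, and knockout libraries 6.1, 4.87 and 7.21. The overexpressor was 5.14-fold (log2 2.36, SE 0.219, edgeR adjusted p = 3.61e-08) and the knockout 21.2-fold above control (log2 4.40, SE 0.21, edgeR adjusted p = 3.32e-12). Myotubes exceeded myoblasts by 1.68 log2 units in control (edgeR adjusted p = 0.00043) and 1.41 in the overexpressor (6.26e-06). In the knockout the value was 0.35 (edgeR adjusted p = 0.0606, called under 3 other settings and without knockout myotube library B, at 0.41 to 0.48). The knockout response was smaller than that of control by 1.34 log2 units (SE 0.39, edgeR adjusted p = 0.00864), a call lost without control myoblast library A, the one with 2 counts (-0.96, adjusted p = 0.0663). Esrrb lies 23.0 Mb from Meg3 on the same chromosome. Of the 31 tested genes within 1000000 bases of Esrrb, 1 was higher and 14 were lower in knockout than in control myoblasts. Over all genes these shares were 26.4% and 26.6%. In overexpressor myoblasts 7 of the 31 were higher and 10 lower than in control (20.7% and 19.7% of all genes). The myotube counts against control were 6 and 17 in the knockout (31.0% and 37.0%) and 6 and 13 in the overexpressor (26.2% and 30.9%).

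Esrrg, which encodes ERR gamma, the receptor of oxidative muscle fibres and heart (chromosome 1, 187608791 to 188214885, plus strand), was near the detection limit. Its counts were 1, 0 and 6 in control myoblasts, 0 in all 3 overexpressor myoblast libraries, and 2, 0 and 2 in knockout myoblasts. No fold is given among these, because 3 counts or fewer are treated as the floor. Control myotubes had 13, 20 and 18 counts, overexpressor myotubes 6, 3 and 12, and knockout myotubes 4, 5 and 8, and every control library was above those of the clones. Control myotubes were above control myoblasts (edgeR adjusted p = 0.00478), with no fold given because control myoblast libraries A and B were under the floor. The mean of overexpressor myotubes was at least 1.51-fold the floor of overexpressor myoblasts (edgeR adjusted p = 0.0108). Library B of these myotubes, with 3 counts, was itself at the floor. The mean of knockout myotubes was at least 1.85-fold the floor of knockout myoblasts, without passing (edgeR adjusted p = 0.102). Against control myotubes the overexpressor was lower by 1.79 (edgeR adjusted p = 0.0236) and the knockout by 1.69 (0.0319) on the log2 scale. Neither call was made by DESeq2's Wald test (0.0524 and 0.0723), and each was lost without any 1 of several libraries (adjusted p 0.0605 to 0.105), control library B among them in both cases (0.0903 and 0.105). Each by its own group means, Esrrg was highest in control myotubes, while Esrra and Esrrb were highest in knockout myotubes. Even in control myotubes Esrrg made up 0.506% of the summed receptor RPKM, against 99.1% for Esrra.

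Ppard encodes the fatty acid receptor that acts on genes of lipid use in muscle (chromosome 17, 28232700 to 28301474, plus strand), and it was lower in both clones. Control myoblasts held 92.4, 96.8 and 100 CPM, overexpressor myoblasts 83.1, 69.5 and 84.3, and knockout myoblasts 66.7, 65.2 and 66.1. None of the 3 lines overlapped. Ppard fell by 0.29 log2 units in the overexpressor (SE 0.0813, edgeR adjusted p = 0.00791) and by 0.55 in the knockout (SE 0.0815, edgeR adjusted p = 1.6e-05). In myotubes control held 77.5 to 81.8 CPM, above the 55.6 to 68.3 of the overexpressor and the 62.5 to 69.1 of the knockout. These differences were -0.34 (edgeR adjusted p = 0.00161) and -0.31 (0.00297). The first was not called without overexpressor library C (0.132), with only these groups in the fit (0.0552) or by DESeq2's Wald test (0.0546), and the second was not called with DESeq2 size factors (0.108) or by its Wald test (0.129). With differentiation Ppard fell by 0.27 log2 units in control (edgeR adjusted p = 0.0079) and 0.32 in the overexpressor (0.00242, or 0.0564 without overexpressor myotube library C), while in the knockout the value was -0.025 (interval -0.20 to 0.15).

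Nrf1 (chromosome 6, 30047988 to 30153458, plus strand) was the regulator that differed least between lines. Control myoblasts held 50.0 to 50.5 CPM, overexpressor myoblasts 49.9 to 51.1 and knockout myoblasts 44.0 to 48.1. None of its 4 differences from control passed, with log2 values between -0.12 and 0.00086. Intervals bound the change at -0.27 to 0.040 in knockout myoblasts and at -0.15 to 0.16 in overexpressor myoblasts. It fell with differentiation in all 3 lines, by 0.50 log2 units for control (edgeR adjusted p = 1.17e-05), 0.58 for the overexpressor (1.59e-06) and 0.45 for the knockout (3.84e-05). Myotube libraries of the 3 lines overlapped at 30.9 to 38.1 CPM.

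Gabpa, the DNA-binding subunit of the GA-binding protein (chromosome 16, 84834925 to 84863779, plus strand), varied widely between myotube libraries. Control myoblasts held 58.5, 50.0 and 52.5 CPM, overexpressor myoblasts 54.7, 73.4 and 60.0, and knockout myoblasts 51.4, 52.5 and 53.0. Neither difference from control passed, at 0.22 log2 units in the overexpressor (interval -0.29 to 0.74) and -0.038 in the knockout (interval -0.55 to 0.48). The myotubes of control held 46.5, 42.2 and 56.5, those of the overexpressor 44.5, 48.2 and 86.1, and those of the knockout 36.1, 22.3 and 20.2. Knockout myotubes lay below all others, while overexpressor library C lay far above its own replicates. The knockout was 1.85-fold below control (log2 -0.88, SE 0.244, edgeR adjusted p = 0.00508) and fell by 1.00 log2 units with differentiation (SE 0.244, edgeR adjusted p = 0.00248). Against control, the response differed by -0.85 (edgeR adjusted p = 0.0528), and it passed with only these groups in the fit and by DESeq2's Wald test (0.0221 and 0.0358) and without knockout myotube library A (-1.15, 0.00767). Gabpa shares 397 exon bases with Atp5j on the opposite strand, which bears on its counts if strand was not used.

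Tfam, the target that carries these signals to mitochondrial DNA (chromosome 10, 71225464 to 71238280, minus strand), was highest in knockout myoblasts. Control myoblasts held 37.3, 33.6 and 35.8 CPM, overexpressor myoblasts 32.6, 39.3 and 33.6, and knockout myoblasts 57.8, 60.6 and 59.8. Knockout libraries were clear of both other lines, which overlapped. The knockout was 1.67-fold above control (log2 0.74, SE 0.118, edgeR adjusted p = 3.63e-05). Control myotubes held 33.0, 36.6 and 41.8 CPM, overexpressor myotubes 41.1, 43.1 and 57.4, and knockout myotubes 49.6, 44.1 and 39.9. The lines overlapped on day 3. The overexpressor was 0.35 log2 units above control (edgeR adjusted p = 0.0177, or 0.0926 without control library A). For the knockout the value was 0.26 (edgeR adjusted p = 0.0566), which passed with DESeq2 size factors (0.39, 0.00302), with library totals (0.0351) and with only these groups in the fit (0.0229). It also passed without control library C (0.0225) or knockout library C (0.0284). Tfam rose by 0.42 log2 units with differentiation in the overexpressor (edgeR adjusted p = 0.00429) and fell by 0.42 in the knockout (0.00499), while the control value was 0.061. The knockout response was below that of control by 0.48 (SE 0.167, edgeR adjusted p = 0.0244), a call lost with DESeq2 size factors (0.0809), with library totals (0.0685), and without control myoblast B (0.0594), control myotube C (0.0762) or knockout myotube C (0.0663).

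The comparisons of the lines as myoblasts were then read over the whole set. In knockout against control myoblasts 6 of the 10 regulators were higher (Ppargc1a, Ppargc1b, Pprc1, Esrra, Esrrb and Tfam) and Ppard was lower, where 53.0% of all genes passed in either direction, 26.4% higher and 26.6% lower. The median log2 difference of the 10 was 0.36, beside 0.019 over all genes. In overexpressor against control myoblasts Esrra and Esrrb were higher and Ppard lower, 3 of 10, where 40.4% of all genes passed, 20.7% higher and 19.7% lower. The comparison of the clones with each other had 5 regulators lower in the overexpressor (Ppargc1a, Ppargc1b, Pprc1, Esrrb and Tfam) and Ppard higher by 0.26 log2 units (edgeR adjusted p = 0.0121, but 0.0587 or 0.0629 without overexpressor library A or C), where 52.6% of genes passed, 25.7% higher and 26.9% lower. Nrf1 did not pass in knockout myoblasts (edgeR adjusted p = 0.202, or 0.0287 with only the libraries of these groups in the fit). Both clones are compared with the same control libraries, so their differences from control are not independent of each other. With the myotube markers of knockout myoblasts at 9520 to 12100 CPM against 259 to 393 in control, the part of differentiated cells in these differences was not tested. The summed fibroblast markers, all 4 detected, were 186 to 206 CPM in control myoblasts, 41.8 to 46.1 in overexpressor myoblasts and 49.4 to 50.1 in knockout myoblasts, and their part was not tested either.

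Among myotubes, 8 regulators passed in the knockout, 5 higher (Ppargc1a, Ppargc1b, Pprc1, Esrra and Esrrb) and 3 lower (Esrrg, Gabpa and Ppard), where 68.0% of all genes passed, 31.0% higher and 37.0% lower. In the overexpressor 7 passed against control, 4 higher (Ppargc1b, Esrra, Esrrb and Tfam) and 3 lower (Ppargc1a, Esrrg and Ppard), where 57.1% of genes passed, 26.2% higher and 30.9% lower. That count was 4 without control library A or without overexpressor library B. Of the genes called in the overexpressor comparison 45.8% were higher, a share that became 55.1% under DESeq2 size factors and 57.8% under library totals, as the median over all genes moved from -0.037 to 0.071 and 0.11. The clones differed from each other in 5 regulators, Ppargc1a, Pprc1, Esrra and Esrrb lower and Gabpa higher in the overexpressor, where 59.7% of genes passed, 30.6% higher and 29.1% lower. With 10 regulators, these counts stand near what the shares of all genes would give. By size, Esrrb and Ppargc1a stood 4.40 and 2.53 log2 units above control in the knockout, while the median over all genes was -0.068. The summed fibroblast markers were below the control range in both clones here as in myoblasts, with 534 to 587 CPM for control libraries, 30.0 to 30.5 for overexpressor and 22.7 to 25.7 for knockout libraries, and their part in the results was not tested.

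**Figure D3:**
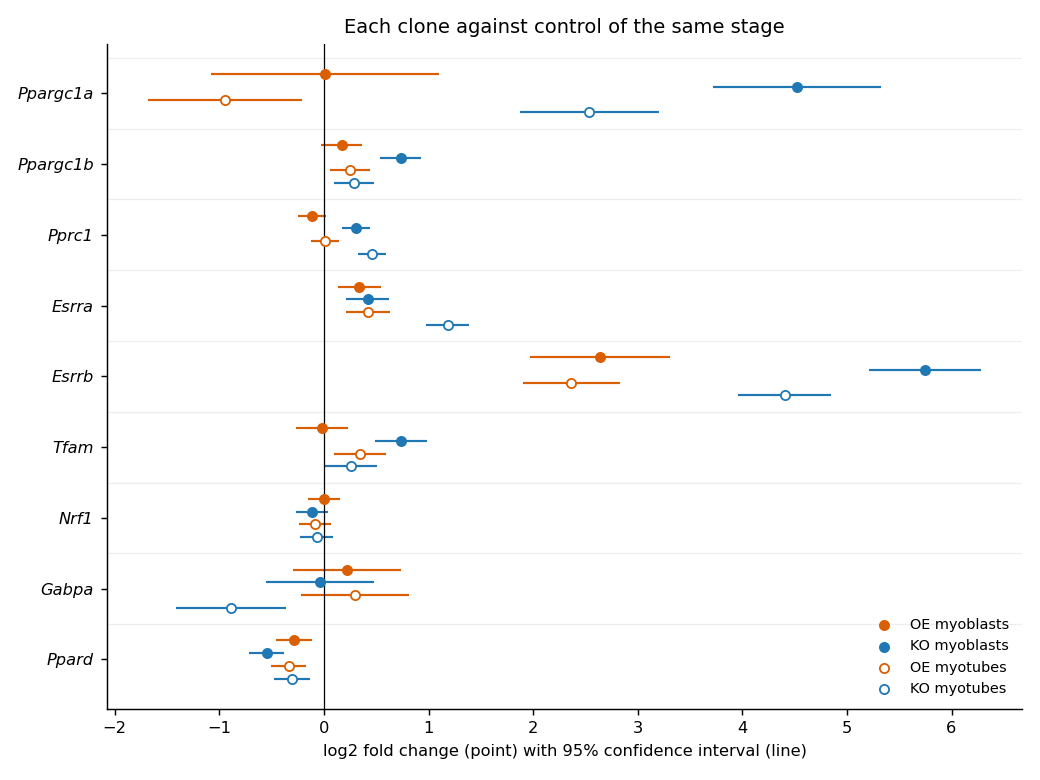
Log2 fold change of 9 regulators in each clone against control of the same stage, with 95% confidence intervals as lines; orange is the overexpressor (OE), blue the knockout (KO), filled points are myoblasts and open points myotubes, and Esrrg is left out because its myoblast counts were near the floor. Esrrb lies right of 0 in all 4 comparisons and Ppard left of 0 in all 4, while Ppargc1a lies at 4.52 and 2.53 in the knockout and at 0.0078 and -0.95 in the overexpressor.

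Differentiation moved the regulators in the control line in both directions. Ppargc1a, Ppargc1b, Esrrb and Esrrg rose and Pprc1, Nrf1 and Ppard fell, 7 of 10 where 62.8% of all genes passed, 33.9% higher and 28.8% lower. In the overexpressor Ppargc1a, Ppargc1b, Esrrb, Esrrg and Tfam rose and Nrf1 and Ppard fell, again 7 where 62.8% passed, 29.8% higher and 33.0% lower. The knockout had 4 calls, a rise of Esrra and falls of Tfam, Nrf1 and Gabpa, where 65.4% passed, 29.8% higher and 35.6% lower. The knockout count was 7 with library totals (1 higher and 6 lower). With library totals the control median over all genes was -0.17 in place of 0.070, and 37.9% of the genes called were higher in place of 54.0%. The knockout median was then -0.24 in place of -0.075, and 34.0% were higher in place of 45.5%. DESeq2 size factors moved the knockout median to 0.037 and its share to 53.7%. Values of the regulators are read against those medians.

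The responses of the lines were then compared directly. No regulator passed for the overexpressor response against that of control (0 of 10 by edgeR, where 39.0% of all genes passed, 16.6% higher and 22.3% lower). Tfam alone was under an unadjusted p of 0.05 (0.36, SE 0.167, edgeR adjusted p = 0.0964), and DESeq2's Wald test called 1, Tfam (0.47, adjusted p = 0.0149). With library totals 2 passed. For the knockout response 5 passed, Esrra higher and Ppargc1a, Ppargc1b, Esrrb and Tfam lower, where 50.1% of genes passed, 20.2% higher and 29.9% lower. That split of 1 higher and 4 lower became 3 and 2 with DESeq2 size factors and 3 and 3 with library totals. Pprc1 (adjusted p = 0.0218 and 0.0331) and Ppard (0.0177 and 0.0244) passed as higher under these scalings, and Tfam did not pass under either. With only these groups in the fit 8 passed. Of all genes called, 42.7% were higher in the first of these comparisons and 40.4% in the second. DESeq2 size factors changed these shares to 53.9% and 52.0%, and library totals changed the first to 61.0%. All 4 regulators with a lower response had knockout myoblast libraries above every control myotube library. The same held for Esrra, whose response was higher (55.6 to 58.8 against 42.7 to 51.0 CPM). It also held for Pprc1, whose response did not pass by edgeR with TMM (117 to 121 against 83.4 to 85.6 CPM), so this order was not particular to the 4. The share of all genes with this order was not counted, and its part in the responses was not tested.

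**Figure D4:**
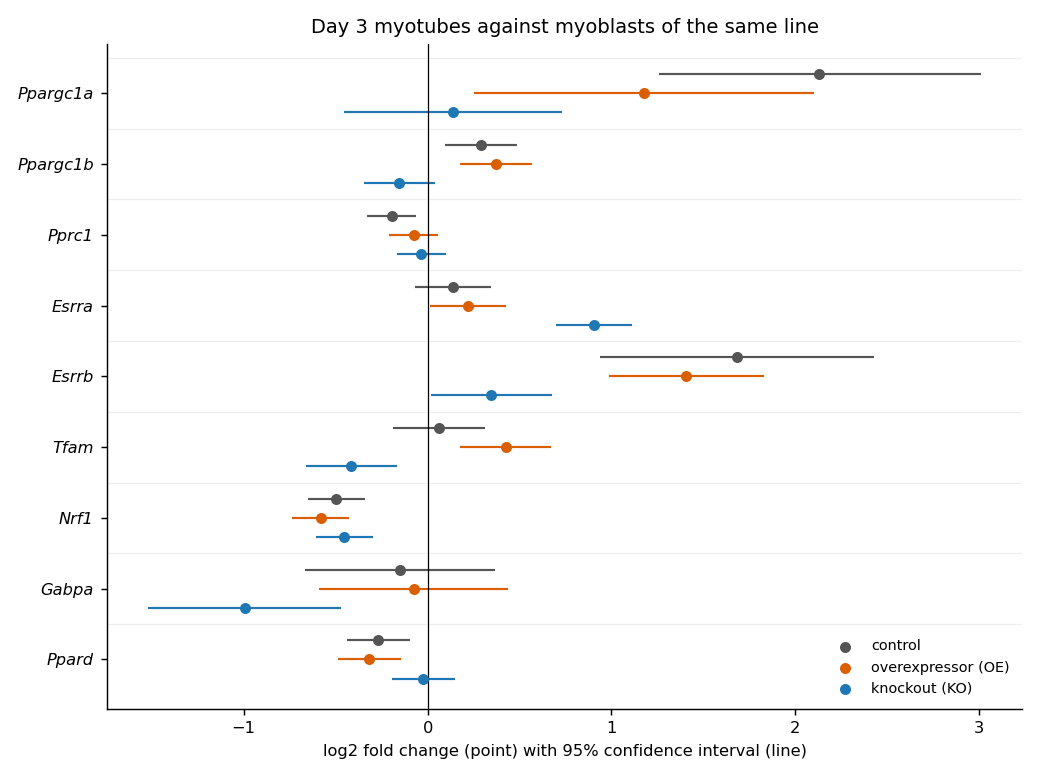
Log2 fold change of 9 regulators between day 3 myotubes and myoblasts of the same line, with 95% confidence intervals as lines (grey control, orange overexpressor, blue knockout); Esrrg is left out because its myoblast counts were near the floor. Nrf1 lies left of 0 in the 3 lines at -0.50, -0.58 and -0.45, and Esrra lies at 0.91 in the knockout against 0.14 in control.

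The genes around the regulators were taken from 5 lists of 100 genes in all, textbook groups described here by their counts and medians. Of all genes tested against control, 26.4% were higher and 26.6% lower in knockout myoblasts, and 20.7% and 19.7% in overexpressor myoblasts. In myotubes these shares were 31.0% and 37.0% for the knockout and 26.2% and 30.9% for the overexpressor. With control differentiation they were 33.9% and 28.8%. The list counts are to be read beside these shares. Where no fold is named, their differences are log2 values. The first list held 26 genes for signals and cofactors that act on PGC-1 proteins or their genes (AMPK subunits, calcineurin, CREB, MEF2 and deacetylase), of which 25 were tested and Camk4 was not. In knockout myoblasts 10 were higher and 4 lower than in control, with a median log2 difference of 0.15. Mef2c, a MEF2 factor that binds the Ppargc1a promoter in muscle, was 26.5 ± 3.32 CPM against 0.163 ± 0.0519 (log2 7.35, edgeR adjusted p = 2.18e-09). Prkag3, the AMPK gamma subunit of glycolytic muscle, was 38.3 ± 3.46 against 1.78 ± 0.216 (log2 4.43, edgeR adjusted p = 3.1e-15). Both are genes that rose in control differentiation, by 8.90 and 5.02. Crtc3, a coactivator of CREB, fell by 0.62 and Prkag1 by 0.59. In knockout myotubes 10 were higher and 13 lower, and the median was -0.25. There Prkag2 was higher by 3.88 (31.8 ± 1.06 against 2.15 ± 0.138 CPM) and the calcineurin gene Ppp3ca lower by 1.69 (84.7 ± 12.1 against 274 ± 28.1). Prkag2 had fallen by 2.92 with control differentiation, from 16.3 ± 1.11 CPM in control myoblasts. The overexpressor had 4 higher and 5 lower in myoblasts and 9 and 8 in myotubes (9 and 5 with DESeq2 size factors or library totals). In those myotubes Prkag2 was higher than in control by 2.39 (11.3 ± 0.596 against 2.15 ± 0.138 CPM) and Prkag3 by 1.59 (174 ± 14.3 against 57.8 ± 2.2). Ppp3ca was 2.59-fold lower than in control, and Crtc3 stood at 17.3 ± 1.46 against 43.3 ± 2.79 CPM.

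Partner subunits, related receptors and related factors made up 21 genes, of which 20 were tested and Thrb was not. Knockout myoblasts had 8 higher and 7 lower, with a median of -0.20, or -0.054 where 2 genes with a group at the floor were set to their bound. Rora, an orphan receptor, was 9.42 ± 1.26 CPM against 1.98 ± 0.486 in control (log2 2.24, edgeR adjusted p = 3.79e-06), and Nr4a1, an immediate-early orphan receptor, was 2.47-fold higher. Pparg, the adipocyte relative of Ppard, fell by 0.90, and the shared partner Rxra by 0.72. In overexpressor myoblasts Pparg instead was higher, by 0.76 (19.3 ± 0.274 against 11.4 ± 1.18 CPM), and Thra lower by 1.02, with 3 higher and 5 lower in all. The overexpressor myotubes had 4 higher and 11 lower, and a median of -0.41. Nr4a3 fell there by 2.44 and Nr1d1, the clock repressor REV-ERB alpha, by 1.54 (42.3 ± 4.82 against 123 ± 8.45 CPM). In knockout myotubes 7 were higher and 9 lower (9 and 7 with DESeq2 size factors), among the lower Gabpb2, a partner subunit of GABPA, by 1.27 (15.8 ± 3.99 against 38.3 ± 1.71 CPM).

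The genes that transcribe and maintain mitochondrial DNA numbered 21 and were all tested. In knockout myoblasts 9 were higher and 3 lower, with a median of 0.26. Tefm, the elongation factor of mitochondrial transcription, was 16.7 ± 0.327 CPM against 9.05 ± 0.319 (log2 0.89, edgeR adjusted p = 3.66e-07), and Mgme1, an exonuclease, fell by 0.52. In knockout myotubes 5 were higher and 9 lower (7 and 7 with DESeq2 size factors), with a median of -0.21. Polrmt, the mitochondrial RNA polymerase, was 1.62-fold higher (101 ± 9.44 against 62.2 ± 3.93 CPM). Lonp1, the matrix protease that degrades TFAM, was lower by 1.60 (190 ± 15.3 against 578 ± 12.4 CPM), and Rrm2b, which supplies nucleotides, was 4.31-fold lower. In the overexpressor 2 were higher and 4 lower in myoblasts, and 4 and 8 in myotubes (6 and 6 with either other scaling), and Lonp1 was 4.04-fold lower there, at 143 ± 10.4 CPM. With control differentiation 10 rose and 1 fell (7 and 3 with library totals), led by Lonp1, up 3.93-fold. In myoblasts Lonp1 stood at 122 ± 7.52 CPM in the overexpressor and 143 ± 3.19 in the knockout against 147 ± 4.79 in control.

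Textbook targets of the estrogen-related receptors and PPARD, 18 genes of fatty acid and citric acid metabolism, were mixed in myoblasts and mostly higher in myotubes of the clones. Knockout myoblasts had 8 higher and 6 lower, with a median of 0.215. Cd36, the fatty acid translocase, was 17.1 ± 1.86 CPM against 0.183 ± 0.0795 (log2 6.55, edgeR adjusted p = 8.5e-08) and Hadhb, of the trifunctional protein of beta-oxidation, was 2.45-fold higher. Cd36 is also a gene that rose in control differentiation, by 6.26 to 14.0 ± 2.57 CPM. Angptl4 and Plin2, targets of PPARD in many cells, fell by 2.04 and 1.10. In overexpressor myoblasts Angptl4 fell by 0.74 and Plin2 rose by 0.59, and Ucp2 was lower by 1.78, with 4 higher and 6 lower in all. In knockout myotubes 12 were higher and 3 lower (31.0% and 37.0% of all genes). Their median was 0.69 beside -0.068 over all genes. Fabp3, the muscle fatty acid carrier, was 19.7 ± 2.82 CPM against 5.42 ± 0.399 (log2 1.86, edgeR adjusted p = 3.6e-10), while Vegfa, also a hypoxia gene, fell by 3.32 to 38.8 ± 5.93 from 388 ± 27.2 CPM. In overexpressor myotubes 10 were higher and 5 lower (26.2% and 30.9% of all genes), with a median of 0.35. Pdk4, which restrains glucose oxidation, was 44.7 ± 4.14 CPM against 12.4 ± 0.749 there. Pdk4 itself fell with differentiation in all 3 lines, by 3.00 for control, 1.07 for the overexpressor and 0.76 for the knockout. With control differentiation 9 of the list rose and 6 fell (7 and 8 with library totals).

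Textbook targets of NRF1 and GABPA, 14 genes of the respiratory chain and of mitochondrial import, numbered 12 higher and 0 lower in knockout myoblasts, with a median of 0.51 beside 0.019 over all genes. Cox17, a copper chaperone of cytochrome oxidase, was 17.6 ± 0.538 CPM against 9.28 ± 0.64 (log2 0.92, edgeR adjusted p = 1.25e-07), and Timm17a, of the inner membrane translocase, 94.3 ± 1.75 against 52.7 ± 1.28 (log2 0.84, edgeR adjusted p = 5e-10). The count was 10 to 12 higher and 0 lower without any single library. At the same stage Nrf1 and Gabpa themselves did not pass. In overexpressor myoblasts 4 were higher and 5 lower. Cox17 was among the higher here too, by 0.77 (15.8 ± 1.55 against 9.28 ± 0.64 CPM), as was Tomm34, by 0.66. The lower included Alas1, the first enzyme of heme synthesis, by 0.54 and the chaperone Hspd1 by 0.46. Cox17 also rose by 1.19 with control differentiation, to 21.2 ± 1.55 CPM. Knockout myotubes had 9 higher and 2 lower, with a median of 0.34, and Cox4i1, a subunit of cytochrome oxidase, was 865 ± 118 CPM against 412 ± 23.6. The lower genes were Hspd1, by 0.52, and the import receptor Tomm70a, by 0.46. Overexpressor myotubes had 4 higher and 3 lower (7 and 3 with library totals). With differentiation 8 rose and 0 fell in control (7 and 3 with library totals), where 33.9% of all genes rose and 28.8% fell. In the overexpressor 10 rose and 2 fell (29.8% and 33.0% of all genes), and in the knockout 11 rose and 3 fell (29.8% and 35.6%).

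**Figure D5:**
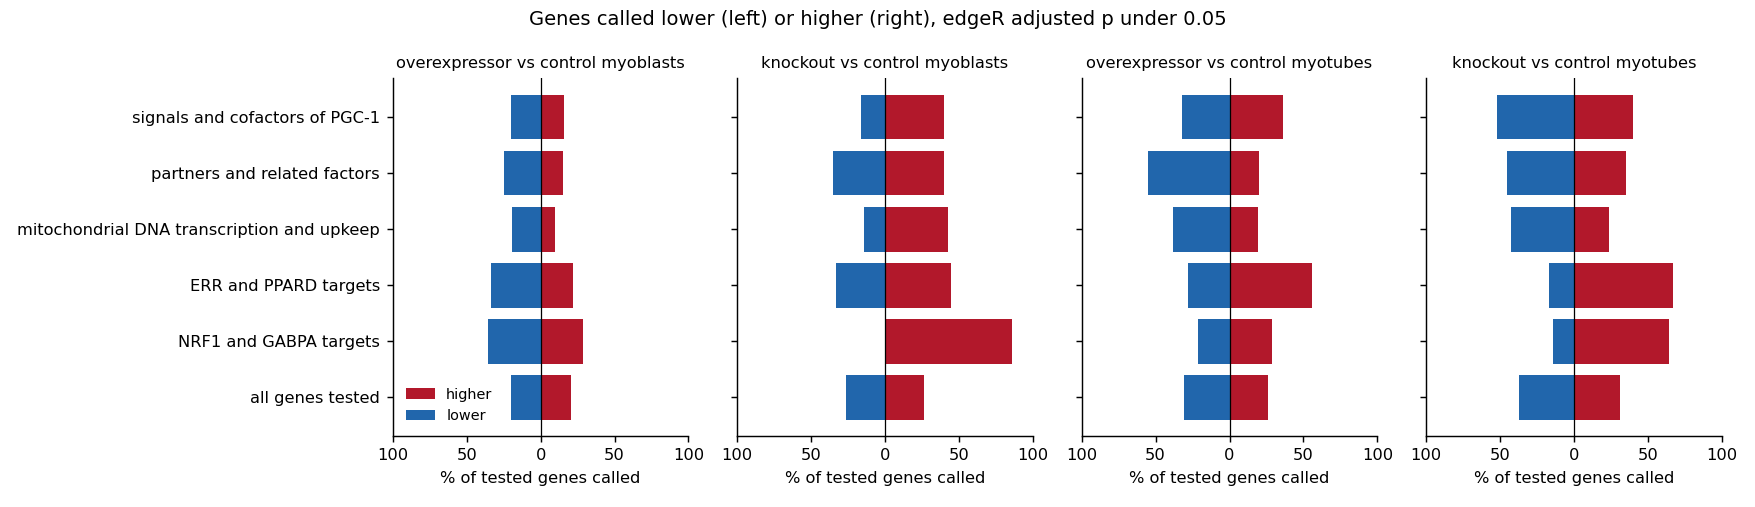
Percent of the tested genes of each list called higher (red, right) or lower (blue, left) than control of the same stage (edgeR adjusted p under 0.05), with all 17912 tested genes as the bottom bar. The NRF1 and GABPA targets in knockout myoblasts have 12 of 14 higher and 0 lower, where 26.4% of all genes were higher and 26.6% lower.

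For the regulators whose group means differed at least 2-fold, the protein-coding genes with the most similar profile were listed by Pearson r of log2 CPM over the 18 libraries, which share lines and stages, so r is a description only. Ppargc1a was closest to Fgf9 (r = 0.945), Gem (0.943) and Hadha (0.941), the last at 242 CPM in control myoblasts, 503 in knockout myoblasts and 676 in knockout myotubes. Esrra was close to Plekho1 (0.982) and Tsc2 (0.973), and Esrrb to Pou4f1 (0.981), Mtch2 (0.97) and Pcmt1 (0.969). Pou4f1, a neural transcription factor, stood at 1.09 CPM in control myoblasts, 8.34 in knockout myoblasts and 10.2 in knockout myotubes. Esrrg was closest to Snupn (0.9), Psma2 (0.898) and Gfm2 (0.888), on its few counts. Gabpa was close to Tnks2 (0.986) and Rps6ka3 (0.983), which were lowest in knockout myotubes, as Gabpa was at 26.2 ± 8.63 CPM. Tnks2 stood there at 86.6 CPM against 133 in control myotubes.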

How the data were processed

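RNA from 18 libraries was sequenced, and the authors deposited whole-number read counts per Ensembl gene. Reads were aligned to mm10 with STAR 2.7.9a and counted with featureCounts of Subread 2.0.3, per the submitters' processing notes, which also name FastQC 0.11.7 and DESeq2 1.32.0. Which annotation release was counted, and whether strand was used, is not given in the sources used here. Symbols, positions and exon lengths came from GENCODE M21 (GRCm38), which named 55190 of 55450 IDs, and promoters from RefSeq (GRCm38.p6).

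Counts were tested in R 4.3.3 with edgeR 4.0.16 (limma 3.58.1): filterByExpr, TMM (factors 0.895 to 1.08), 1 fit of all 18 libraries in 6 groups with 12 residual degrees of freedom, robust quasi-likelihood tests of 11 contrasts, and Benjamini-Hochberg adjustment over 17912 genes at 0.05. Intervals are 95%. The steps were tested on simulated data. Alternatives were DESeq2 1.42.0 size factors and its Wald test, library totals, no filter, only the groups compared, the replicate letter as a block, and each library left out. A gene at 3 counts or fewer per library was treated as at the floor.

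Named genes were all 10 regulators, Meg3 as the label check, and from each list in each contrast up to 2 genes with the highest and 2 with the lowest log2 fold change among those passing with at least 5 CPM. To these came the 3 protein-coding genes most like each regulator whose group means differed 2-fold, of which some are not reported here. The members and lists were chosen with earlier results of these data known. No 2 libraries agreed within sampling noise (lowest chi-square per degree of freedom between replicates 4.72).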

Additional observations from a re-analysis of the deposited data

Results flagged for a closer look

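The differentiation response of 5 of the 10 regulators differed between the knockout and the control line by a test of the difference itself (edgeR, interaction of line and stage). Of all genes 50.1% passed this test, 20.2% higher and 29.9% lower, so the count of regulators stands near that share. The split of 1 higher and 4 lower became 3 and 2 with DESeq2 size factors and 3 and 3 with library totals. The response of Ppargc1a was lower in the knockout by 1.99 log2 units (value -1.991, SE 0.503, edgeR adjusted p = 0.00362), with mean levels of 0.304 CPM in control myoblasts, 1.34 in control myotubes, 7.08 in knockout myoblasts and 7.79 in knockout myotubes. For Esrrb, the ERR beta gene, it was lower by 1.34 (-1.338, SE 0.39, edgeR adjusted p = 0.00864). Ppargc1b gave -0.4464 (SE 0.131, edgeR adjusted p = 0.00892), with means of 8.63, 10.6, 14.3 and 12.9 CPM in the same order. Tfam gave -0.4765 (SE 0.167, edgeR adjusted p = 0.0244), with means of 35.6, 37.1, 59.4 and 44.5 CPM. Esrra alone of the 5 responded more in the knockout, by 0.7667 (SE 0.139, edgeR adjusted p = 0.000194), with means of 42.9, 47.2, 57.3 and 107 CPM. The calls of Ppargc1b and Tfam were lost with DESeq2 size factors (edgeR adjusted p = 0.0821 and 0.0809). That of Tfam was also lost with library totals (0.0685) and without any 1 of several libraries (0.0594 to 0.0762). The Esrrb call was lost without control myoblast library A (edgeR adjusted p = 0.0663). The summed myotube markers rose from 259 to 393 CPM up to 14500 to 15000 in control and from 9520 to 12100 up to 30800 to 36300 in the knockout, and their part in these differences was not tested.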

How the results depend on the processing

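The 110 values of regulators by contrast held 59 calls, and under the alternatives none of the 59 changed direction. Of the 59 calls, 17 were lost under at least 1 alternative. Among 1434 alternative values 1261 kept direction and side of the threshold, 53 lost the call, 44 gained it and 76 changed sign, each of these last for a value that had not passed. The cause of these changes was not tested. With the replicate letter as a replicate block no call was lost or gained (Ppargc1a in overexpressor against control myotubes was -0.942). The letters did not pair the libraries: same-letter correlations ran from -0.358 to 0.264, and 2 of 18 libraries matched their own letter best. Alternatives for the lists were chosen after seeing the data, and no list's total of calls moved by over 1.5 times, though counts in 1 direction did. With library totals the NRF1 and GABPA targets higher in overexpressor myotubes went from 4 to 7, the signals and the ERR and PPARD targets lower there from 8 to 5 and from 5 to 3, and the mitochondrial DNA genes lower with control differentiation from 1 to 3. The partners lower with control differentiation then went from 5 to 10. In knockout differentiation the ERR and PPARD targets lower went from 3 to 7 and the mitochondrial DNA genes higher from 6 to 2. Signals higher in overexpressor against knockout myotubes went from 6 to 12. These are examples, and other counts moved as well. With 1 library left out, the signals lower in overexpressor myoblasts went from 5 to as few as 2.

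Counts of regulators that passed moved by over 1.5 times in 4 contrasts. Within that tolerance they also changed elsewhere with 1 library left out, to 6 to 9 in knockout against control myotubes, 2 to 4 in overexpressor against control myoblasts and 6 to 8 in overexpressor differentiation. In overexpressor against control myotubes the count was 4 to 7 with 1 library left out. In knockout differentiation it was 7 with library totals. For the overexpressor response against control it was 1 with DESeq2 size factors, 2 with library totals, 1 by the DESeq2 Wald test and 0 to 1 with 1 library left out. For the knockout response it was 8 with only the groups compared.

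With library totals, values that changed sign were -0.033 for Ppargc1a and -0.040 for Nrf1 (overexpressor against control myoblasts), 0.064 for Nrf1 (overexpressor against control myotubes), 0.0595 for Ppargc1b, 0.087 for Nrf1 and 0.069 for Ppard (overexpressor against knockout myotubes), -0.104 for Esrra and -0.18 for Tfam (control differentiation), -0.022 for Ppargc1a (knockout differentiation), and 0.104 for Nrf1 and 0.14 for Ppard (overexpressor response). Without the filter they were -0.010 for Ppargc1a and -0.0165 for Nrf1 (overexpressor against control myoblasts) and 0.014 for Nrf1 (overexpressor against knockout myotubes). With only the groups compared they were -0.025 for Ppargc1a and -0.030 for Nrf1 (overexpressor against control myoblasts), 0.0034 and 0.0043 for Nrf1 (overexpressor against control and knockout myotubes), -0.0047 for Tfam (control differentiation), and 0.030 for Pprc1 and 0.040 for Ppard (knockout differentiation). With DESeq2 size factors they were 0.029 and 0.061 for Nrf1 (overexpressor and knockout against control myotubes), 0.011 for Pprc1 (overexpressor differentiation), 0.092 for Pprc1 and 0.102 for Ppard (knockout differentiation), and 0.029 for Nrf1 and 0.066 for Ppard (overexpressor response). The DESeq2 Wald test gave the same values to 2 digits, with 0.062 for Nrf1 in knockout against control myotubes.

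With 1 library left out, values that changed sign ranged as follows. Overexpressor against control myoblasts gave -0.44 to 0.42 for Ppargc1a, -0.10 to 0.033 for Tfam and -0.010 to 0.0065 for Nrf1. Knockout against control myoblasts gave -1.43 to 1.24 for Esrrg and -0.087 to 0.028 for Gabpa, and overexpressor against knockout myoblasts -0.14 to 0.015 for Esrra. Overexpressor against control myotubes gave -0.031 to 0.18 for Pprc1 and -0.15 to 0.077 for Nrf1. Overexpressor against knockout myotubes gave -0.10 to 0.0026 for Ppargc1b, -0.70 to 0.34 for Esrrg, -0.054 to 0.17 for Tfam, -0.065 to 0.0715 for Nrf1 and -0.086 to 0.082 for Ppard. Differentiation gave -0.032 to 0.14 for Tfam in control, -0.12 to 0.036 for Pprc1 and -0.39 to 0.10 for Gabpa in the overexpressor, and -0.032 to 0.31 for Ppargc1a and -0.071 to 0.0035 for Ppard in the knockout. The overexpressor response gave -0.0099 to 0.24 for Esrra, -0.54 to 0.11 for Esrrb, -0.15 to 0.087 for Nrf1, -0.17 to 0.25 for Gabpa and -0.13 to 0.15 for Ppard, and the knockout response -0.025 to 0.10 for Nrf1. Depth limits Ppargc1a and Esrrb in control and overexpressor cells, and Esrrg everywhere, where libraries held few counts.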
